A study of Cricetiscus sungorus with 216 samples.

Results

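The glucocorticoid receptors and their responsive genes were followed through the winter response of the Djungarian hamster (Phodopus sungorus). The set holds 6 gene symbols: the receptor genes Nr3c1 and Nr3c2, the steroid enzyme gene Hsd11b1, and Fkbp5, Sgk1 and Tsc22d3. They were chosen by name, with earlier results of these data known. All 6 were present in each of the tables of the mediobasal hypothalamus (MBH, 20156 gene symbols), dorsomedial hypothalamus (DMH, 21821), paraventricular nucleus (PVN, 18960) and pituitary gland (Pit, 22482), out of 32078 symbols in all. Of the 54 adult males, aged 3–8 months, 6 stayed in long days (LD, 16 h light) and 6 were killed after each of 4, 8, 12, 16, 20, 24, 28 and 32 weeks in short days (SD, 8 h light). All 4 tissues came from the same hamsters, killed 2–4 h after lights on, which gave 54 nanopore cDNA libraries per tissue, 6 for each group. The labels name no allele or drug for any group, so photoperiod was the only treatment given. The comparisons ask whether these transcripts varied with time in SD, which spans the induction, maintenance and recovery of the winter state.

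Glucocorticoids are released by the adrenal cortex under the control of corticotropin-releasing hormone from the PVN and adrenocorticotropin from the pituitary gland. They bind the glucocorticoid receptor (Nr3c1) and, with higher affinity, the mineralocorticoid receptor (Nr3c2), which move to the nucleus and regulate transcription. In the hypothalamus and pituitary gland the glucocorticoid receptor carries the negative feedback that restrains the axis. Hsd11b1 encodes the enzyme that regenerates active glucocorticoid inside cells. Fkbp5 encodes a co-chaperone that lowers the affinity of the receptor for its ligand, Sgk1 a kinase that acts on ion channels and transporters, and Tsc22d3 the leucine zipper protein GILZ. The last 3 are classical targets that the hormone-bound receptor induces.

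Depth differed strongly between tissues and libraries. Library totals ranged from 5996 to 13208361 estimated counts in the MBH, from 149289 to 9084072 in the DMH, from 159 to 998245 in the PVN and from 29219 to 523544 in the Pit. Totals below 10000 were found in 1 MBH and 2 PVN libraries. In the DMH, 9 libraries read none of the 4 transcripts Nr3c1, Sgk1, Tsc22d3 and Hsd11b1, although their totals reached 2992210. Those 9 libraries held counts for 787–4003 gene symbols, against 7463–17626 in the 21 DMH libraries that read all 4. The part of this difference in the DMH values below was not tested. Values are CPM, counts scaled to library size with TMM within a tissue and summed over isoforms. Several isoforms of a gene often held equal values, so sums can hold the same count more than once. In the MBH Nr3c1 summed to 4987 over its 16 isoforms, against 488 when the highest isoform of each library was taken. For that reason, and because lengths were not used, levels were not compared between genes. The PVN table shared 0 isoform identifiers with the other tables and was not compared with them by level. In bulk tissue, fewer cells of a type and less RNA per cell cannot be told apart.

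The labelled tissues were checked against their markers. All 7 arcuate markers had counts in the MBH, all 5 dorsomedial markers in the DMH, and all 10 pituitary markers in the Pit, where their summed level had a median of 71740 CPM in LD. In the PVN, 3 of 6 markers, Trh, Sim1 and Otp, had counts, while Avp, Oxt and Crh, which define its neuroendocrine neurons, were not analysed here, so the check of that tissue rests on 3 genes. Such a check cannot tell the hypothalamic regions apart. All 5 dorsomedial markers also had counts in the MBH and PVN, and all 6 paraventricular markers in the MBH and DMH. Markers that moved with photoperiod in the MBH included those of the pars tuberalis, whose summed level ran from 574 to 1979 CPM (median 1383) in LD and from 18.02 to 295.8 (median 61.84) at 4 and 8 weeks, with 2 of 3 genes (Tshb and Cga) lower in every phase. The anterior and intermediate pituitary markers, which share genes with that list, ran in the MBH from 771.1 to 2353 CPM (median 1529) in LD and from 80.16 to 557 (median 235.2) at 4 and 8 weeks, and 3 of 9 passed the F-test. The tanycyte markers in the MBH ran from 75.16 to 231.1 CPM (median 177.3) in LD and from 0 to 103.5 (median 60.37) at 12 to 20 weeks, with 1 of 5 (Vim) lower then and later. Neuronal markers in the MBH had LD and 12 to 20 week medians of 551.8 and 485.5 CPM, and 0 of 5 passed. The oligodendrocyte markers had MBH medians of 1103 CPM in LD and 517.7 at 4 and 8 weeks, with overlapping ranges, and 0 of 7 passed. The part of these cell types in the MBH levels was not tested.

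No receptor, enzyme or responsive gene passed the quasi-likelihood F-test over the 9 groups (edgeR, FDR below 0.1) in the MBH, the DMH or the PVN. In the MBH 0 of the 6 were called, where 0.442% of all symbols were. In the DMH it was 0 of 6 against 4.62%, in the PVN 0 of 6 against 0.0158%, and in the Pit 1 of 6 against 9.56%. The gene called was Sgk1. At an unadjusted p below 0.05 the counts were also 0, 0, 0 and 1, where 8.01%, 14.7%, 6.15% and 17.7% of all symbols were in the same order. DESeq2 called 0 of 6 in every tissue, where it called 0.0597%, 0.00461%, 0% and 0.00449% of all symbols. With so few calls, its 0 adds little.

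The weeks of SD were also pooled into an early phase (4 and 8 weeks), a middle phase (12, 16 and 20 weeks) and a late phase (24, 28 and 32 weeks), each set against the same 6 LD hamsters. None of the 6 genes passed in any phase and tissue with edgeR or with DESeq2. Over all phases and tissues, Fkbp5 in the late phase of the MBH had their only unadjusted edgeR p below 0.05. In that phase and tissue 1037 of all 20156 symbols had such a p. DESeq2 called few symbols at all. Over the phases it called 12, 8 and 4 in the MBH, 0 in DMH and PVN, and 1, 1 and 2 in the Pit. The shares of all symbols that edgeR called in the early, middle and late phase were 0.0447%, 0.203% and 0.169% in the MBH, 0.669%, 0.898% and 0.293% in the DMH, 0%, 0.0158% and 0.00527% in the PVN, and 0.0845%, 0.44% and 0.623% in the Pit. The median log2 fold change of the 6 genes was -0.13, -0.29 and -0.03 in the 3 phases of the MBH, where that of all symbols was 0. In the PVN it was -0.17, -0.07 and -0.14, against 0.05, 0 and 0 over all symbols. In the DMH the median of all symbols was itself -0.17, -0.26 and -0.26, so estimates there are read against that shift.

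Single weeks gave no call either. Of 192 exact permutation tests of mean CPM between LD and a week of SD (6 against 6 hamsters, 2-sided, smallest possible p 0.00216), 48 in each tissue, 0 had p below 0.05. Among all transcripts with counts in at least 27 libraries, 4% of such tests in the MBH, 4.93% in the DMH, 4.15% in the PVN and 3.39% in the Pit had p below 0.05. In 0 of the 192 comparisons were the ranges of LD and SD hamsters apart, which occurred in 0.181%, 0.108%, 0.124% and 0.107% of the tests of all transcripts with such counts in the 4 tissues in the same order. Fkbp5 in every tissue and Nr3c2 in the DMH and Pit had counts in fewer than 27 libraries. So had Sgk1, Tsc22d3 and Hsd11b1 in the Pit. Their tests lie outside these shares, and some could not reach p below 0.05, as nearly all values were 0. Without the 3 libraries under 10000 counts, the 54 tests they entered again gave 0 with p below 0.05.

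**Figure D1:**
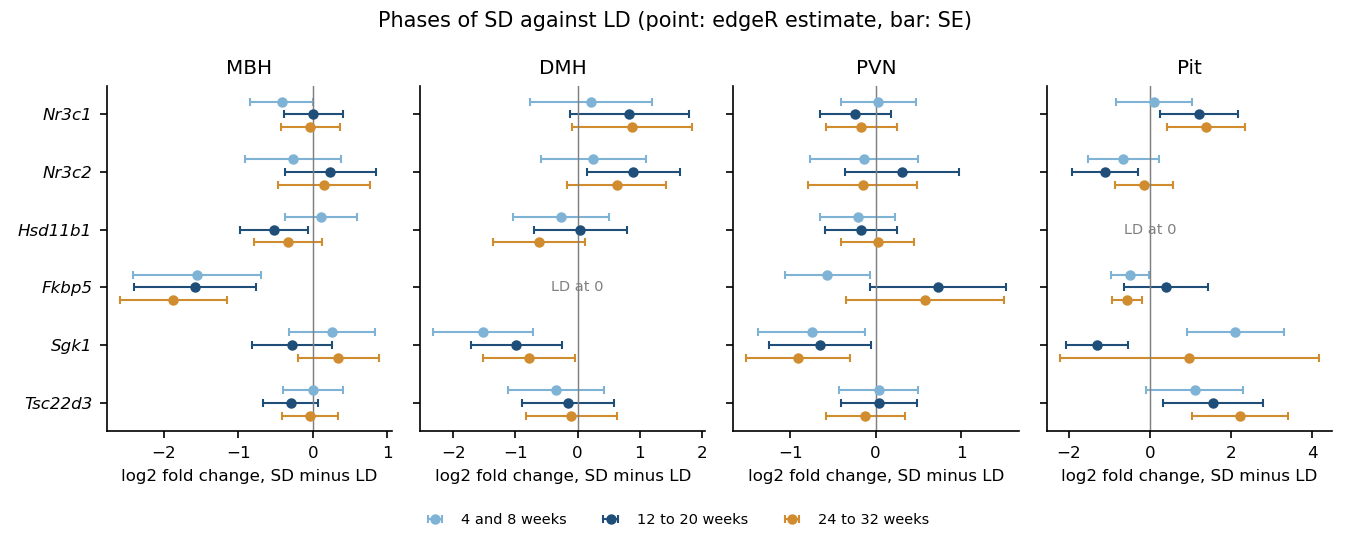
Log2 fold change of each gene in the early, middle and late phase of SD against LD in the 4 tissues, with the edgeR estimate as a point and its standard error as a bar (6 LD hamsters against 12, 18 and 18 SD hamsters; each tissue has its own x axis). Most bars cross or reach 0, Fkbp5 lies at -1.55 to -1.87 in the MBH, and no estimate passed an FDR of 0.1.

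Nr3c1, the glucocorticoid receptor gene, was read in 51 of 54 MBH libraries. In LD it ran from 7.64 to 109.6 CPM with a median of 48.5. At 8 weeks it ran from 0 to 64.1 (median 34.1), at 12 weeks from 14.3 to 116 (median 67.5) and at 32 weeks from 38.7 to 67.2 (median 51.4). Every week overlapped LD, and the spread within LD alone covered nearly the whole range. The group means were 33.6 ± 22.4 CPM at 8 weeks, the lowest, and 64.4 ± 39.7 at 12 weeks, the highest (s.d., n = 6 each), around 56.5 ± 38.3 in LD. The log2 fold change was -0.42 (SE 0.42) in the early, 0.01 (SE 0.40) in the middle and -0.03 (SE 0.40) in the late phase, with an adjusted p of 1 in each (edgeR).

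In the PVN, where feedback on corticotropin-releasing neurons takes place, Nr3c1 had counts in 50 of 54 libraries. It ran from 0 to 56.9 CPM (median 28.0) in LD, from 0 to 26.6 (median 18.6) at 12 weeks, the week with the lowest mean, and from 12.7 to 81.4 (median 29.4) at 4 weeks, the week with the highest. The 12-week mean was 16.1 ± 9.52 CPM and the LD mean 26.4 ± 19.6 (s.d., n = 6; exact permutation p = 0.284). The LD value of 0 came from a library of 159 counts, and without it the LD mean was 31.7 ± 16.5 (n = 5, exact permutation p = 0.0693). Its phase estimates lay between -0.24 (SE 0.41) and 0.03 (SE 0.43) on the log2 scale.

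In the DMH, Nr3c1 was read in 33 of 54 libraries with wide spread. LD ran from 0 to 7.92 CPM (median 4.32), and 28 weeks from 0 to 95.0 (median 5.34). At 28 weeks the mean of 19.1 ± 37.2 CPM (s.d., n = 6) came from replicate 2, while the next hamster of that group had 6.71 CPM. The late-phase estimate was 0.88 (SE 0.96, adjusted p = 0.961, edgeR).

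In the Pit, Nr3c1 had counts in 39 of 54 libraries, and in 2 of the 6 LD libraries (43.2 and 286 CPM). At 12 weeks it ran from 0 to 411 CPM (median 34.4), at 20 weeks from 12.9 to 449 (median 148), at 28 weeks from 43.2 to 429 (median 132) and at 32 weeks from 0 to 242 (median 65.2). Groups overlapped throughout, and the LD hamster at 286 CPM stood above most SD hamsters. Mean levels were 54.9 CPM in LD, 50.1 in the early, 120.4 in the middle and 135 in the late phase. The log2 fold change was 1.20 (SE 0.96, adjusted p = 0.972) in the middle and 1.38 (SE 0.97, adjusted p = 0.883) in the late phase (edgeR). The 15 Pit libraries without Nr3c1, 4 of them from LD, had a median total of 72058 counts, against 95808 in the 39 with it, and its part in these levels was not tested. With the replicate number as a block, Nr3c1 passed the F-test in the Pit (adjusted p = 0.0162), as it did under no other setting.

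Nr3c2, the mineralocorticoid receptor gene, also gave no call. In the MBH it was read in 46 of 54 libraries, from 0.796 to 9.57 CPM (median 3.19) in LD, from 0 to 5.72 (median 0.720) at 4 weeks, the group with the lowest mean, and from 0 to 19.6 (median 4.24) at 24 weeks, the group with the highest. Its log2 fold changes in the MBH were -0.26 (SE 0.65), 0.24 (SE 0.61) and 0.15 (SE 0.62) in the 3 phases. All week ranges overlapped LD. In the DMH it was read in 26 and in the Pit in 23 of 54 libraries.

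In the PVN, Nr3c2 was read in 36 of 54 libraries. It was at 0 in 4 of the 6 LD libraries and reached 41.3 CPM in another. Among those at 0 was the LD library of 159 counts. At 4 weeks all 6 libraries had counts, from 13.2 to 38.2 CPM (median 17.4), while at 8 weeks the range was 0 to 12.9 (median 5.66). The 4-week range lay inside that of LD. The phase estimates of Nr3c2 in the PVN were -0.13 (SE 0.63), 0.31 (SE 0.67) and -0.15 (SE 0.64).

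Hsd11b1, whose product reactivates glucocorticoids in the tissue, was read in 49 MBH, 32 DMH, 47 PVN and 3 Pit libraries. In the MBH, LD ran from 4.63 to 20.4 CPM (median 8.93), 4 weeks from 1.92 to 27.7 (median 14.4), and 28 weeks from 0 to 8.84 (median 5.83). The 4-week and 28-week groups had the highest and lowest mean, 15.6 ± 9.95 and 5.28 ± 3.45 CPM, beside 10.5 ± 5.72 in LD (s.d., n = 6). At 28 weeks 2 of 6 hamsters lay below all LD hamsters, with an exact permutation p of 0.0758. The log2 fold change was 0.11 (SE 0.49) in the early, -0.52 (SE 0.45) in the middle and -0.33 (SE 0.45) in the late phase, none of which passed.

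Hsd11b1 in the PVN ran from 0 to 59.4 CPM (median 37.1) in LD and from 31.2 to 91.8 (median 55.02) at 24 weeks, the group with the highest mean. The 24-week mean was 55.9 ± 21.6 CPM and the LD mean 36.3 ± 22.2, a difference within the spread of the groups (s.d., n = 6; exact permutation p = 0.158). The LD value of 0 belonged to the library of 159 counts. Without it, an alternative chosen after seeing the data, the LD mean was 43.6 ± 14.9 CPM and the exact permutation p 0.318 (n = 5 and 6). Its 2 isoforms held equal values in 46 of 47 PVN libraries with counts, so its sum holds the same count more than once. In the Pit, Hsd11b1 had 3 counts in all, a count each in a library of 4, 20 and 32 weeks. With 0 counts in the 6 LD libraries of the Pit, a level of up to 5.49 CPM could not be told from 0 (3 counts over the group, counting error only), and no fold change is given.

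**Figure D2:**
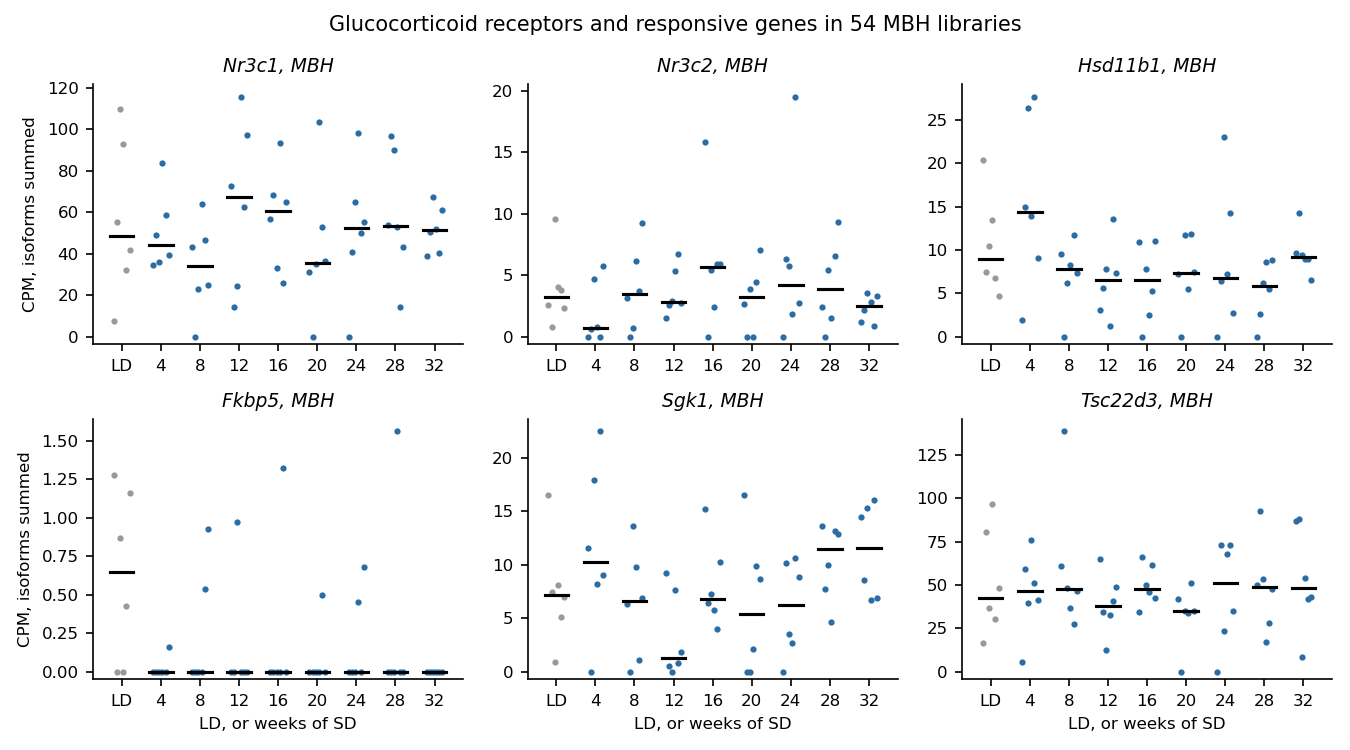
CPM of the 6 genes in the 54 MBH libraries by photoperiod group (LD in grey, weeks of SD in blue; 1 point per hamster, black bar at the median, linear axes). Points of LD and SD hamsters overlap for every gene, and 4 of 6 LD hamsters but at most 2 per SD week have counts for Fkbp5.

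Fkbp5, the receptor co-chaperone gene, was the least read of the responsive genes in the MBH, with 17 counts in 13 of 54 libraries. The LD hamsters had 1.27, 0, 0.870, 0, 0.426 and 1.16 CPM, so 4 of 6 had counts, with 5 counts between them. In SD, at most 2 of the 6 hamsters of a week had counts, and 32 weeks had none, which allows up to 0.266 CPM. The 0 values of 2 LD hamsters kept the groups overlapping at every week. The MBH log2 fold change of Fkbp5 was -1.55 (SE 0.86) in the early, -1.58 (SE 0.81) in the middle and -1.87 (SE 0.72) in the late phase. The late estimate had an unadjusted p of 0.0131 and an adjusted p of 0.702 (edgeR), and the exact permutation p was 0.0606 both at 4 and at 32 weeks (n = 6 each). Its size rests on few reads, since leaving out a replicate number moved the late estimate between -1.50 and -2.87.

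Elsewhere Fkbp5 was near the floor. It had 6 counts in 5 DMH libraries, 12 counts in 11 PVN libraries and 9 counts in 9 Pit libraries. The DMH LD libraries had 0 counts, which allows up to 0.0933 CPM. The PVN estimates were -0.56 (SE 0.49), 0.73 (SE 0.79) and 0.58 (SE 0.93) on the log2 scale for the 3 phases, opposite in sign to the MBH in the middle and late phases, a difference that was not tested.

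Sgk1, the kinase gene, passed the F-test in the Pit with an unadjusted p of 3.83e-04 and an adjusted p of 0.0155 (edgeR). It rested on 65 counts in 14 of 54 libraries. The LD hamsters had counts in 2 libraries (10.2 and 4.80 CPM). At 4 weeks 1 library had counts (92.0 CPM), at 8 weeks 4 (up to 66.4), at 16 weeks 1 (12.7), at 24 weeks 2 (up to 94.3) and at 28 weeks 4 (up to 62.7). No library had counts at 12, 20 or 32 weeks, which allows up to 4.72, 4.28 and 4.09 CPM. No phase passed: the Sgk1 estimates in the Pit were 2.10 (SE 1.20) early, -1.30 (SE 0.76) in the middle and 0.97 (SE 3.19) late.

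The Sgk1 call in the Pit depended on how isoforms were counted. All 6 Sgk1 isoforms held equal values in 5 Pit libraries, and the libraries of 6, 12 or 18 counts were such cases, so these sums hold the same count 6 times. With the highest isoform in place of the sum, the 19 counts left gave an adjusted p of 0.567. DESeq2 gave an adjusted p of 1 and a cosine of 32 weeks 0.580, and the filter on low counts removed the gene. Leaving out each replicate number kept the adjusted p between 0.00286 and 0.0263.

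In the hypothalamus Sgk1 was not called. The MBH ran from 0.870 to 16.6 CPM (median 7.19) in LD, from 0 to 9.18 (median 1.30) at 12 weeks and from 0 to 22.5 (median 10.3) at 4 weeks, and 3 of 6 hamsters at 12 weeks lay below all LD hamsters (exact permutation p = 0.154). The DMH had LD levels of 0 to 5.37 CPM (median 1.90), an early estimate of -1.52 (SE 0.80) and estimates of -0.98 (SE 0.73) and -0.78 (SE 0.74) later, with adjusted p from 0.642 to 0.919 (edgeR). PVN estimates for Sgk1 were -0.75 (SE 0.63), -0.65 (SE 0.60) and -0.90 (SE 0.61). All 3 phases thus had estimates below 0 in the DMH and PVN, and none of these passed.

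Tsc22d3, the GILZ gene, was the most evenly read of the responsive genes. In the MBH it had counts in 52 of 54 libraries, from 16.6 to 96.7 CPM (median 42.3) in LD, from 27.2 to 139 (median 47.5) at 8 weeks and from 0 to 50.9 (median 34.95) at 20 weeks, the groups with the highest and lowest mean. The 20-week library at 0 was the one with 5996 counts. The MBH log2 fold change of Tsc22d3 was 0.00 (SE 0.40) early, -0.30 (SE 0.37) in the middle and -0.04 (SE 0.37) late. In the PVN it was read in 48 of 54 libraries, with group means from 19.1 ± 12.6 CPM at 32 weeks to 28.3 ± 16.1 at 8 weeks (s.d., n = 6), and phase estimates from -0.12 (SE 0.46) to 0.04 (SE 0.45). The DMH, with 37 of 54 libraries, gave estimates from -0.35 (SE 0.77) to -0.10 (SE 0.73).

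In the Pit, Tsc22d3 was read in 26 of 54 libraries. LD hamsters had counts in 3 of 6 libraries (median 6.32 CPM). At 16 weeks the range was 0 to 144 CPM (median 63.3), at 24 weeks 0 to 180.7 (median 13.6) and at 12 weeks 0 to 12.8 (median 0). Libraries at 0 were present in every group. Mean levels were 9.09 CPM in LD and 14.9, 35.9 and 37.9 in the 3 phases, with log2 fold changes of 1.10 (SE 1.19), 1.55 (SE 1.23) and 2.22 (SE 1.19), the last with an adjusted p of 0.658. The F-test gave Tsc22d3 in the Pit an adjusted p of 0.396 (edgeR), and 0.0617 with the replicate block, 0.0172 in the edgeR 4 form and 0.0312 without replicate 3, which count as calls. The neuronal markers in the Pit ran from 30.69 to 364.6 CPM in LD (median 207.3). In the late phase they ran from 42.37 to 684.6 CPM (median 416.8). Their median was 452.6 CPM in the early phase, the highest of the 3 phases, and 352.7 in the middle phase. Of these markers 0 of 5 passed, and their part in the Tsc22d3 and Nr3c1 levels was not tested.

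**Figure D3:**
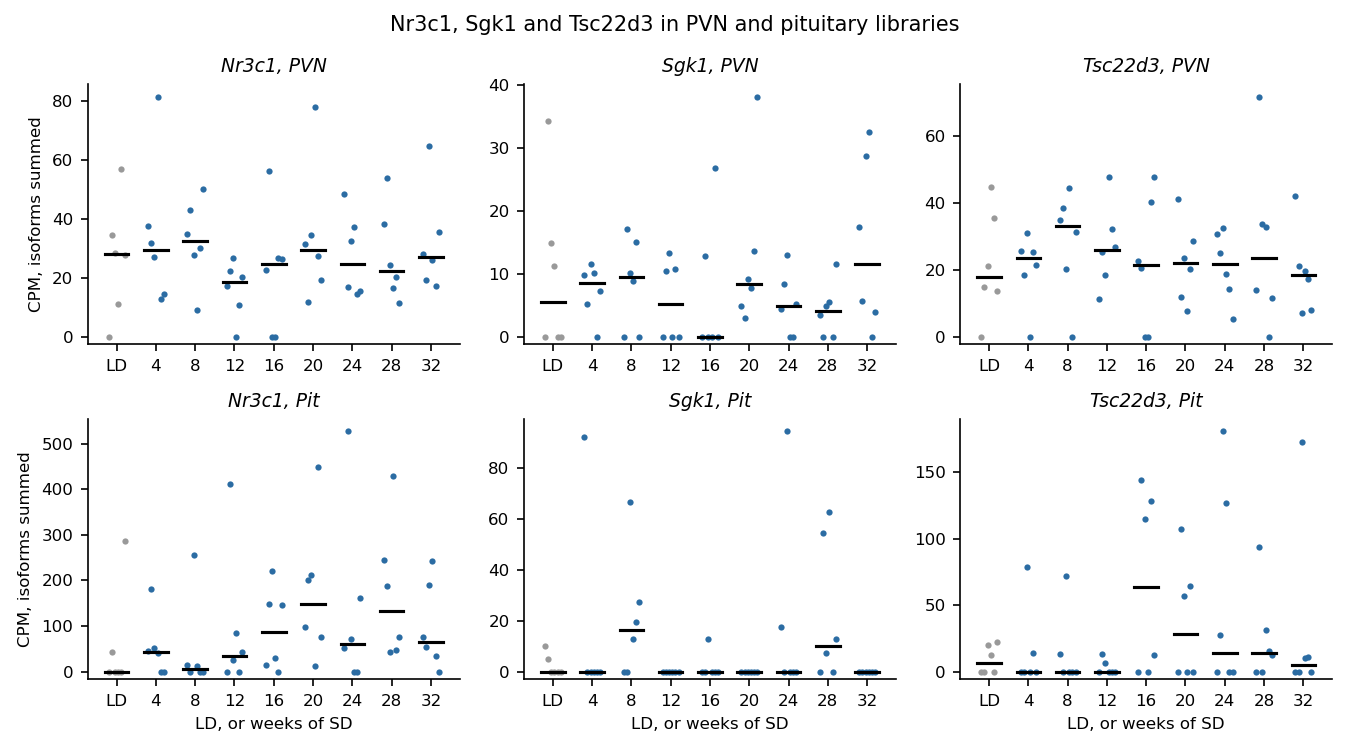
CPM of Nr3c1, Sgk1 and Tsc22d3 in the 54 PVN (top) and 54 Pit (bottom) libraries by photoperiod group (LD in grey, SD weeks in blue; 1 point per hamster, black bar at the median; PVN and Pit levels are not on a common scale). Many Pit libraries lie at 0, and Sgk1 in the Pit has no counts at 12, 20 and 32 weeks.

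The MBH and DMH were compared within a common TMM scaling, as their tables shared 84377 isoform identifiers. On this scale CPM values are lower than within the MBH alone. Most called symbols were higher in the MBH (7220 of 7651, or 43.1% of 17760 called in all), and the median log2 difference over all symbols was 0.54, so differences are read against that shift. The main fit treated the MBH and DMH libraries as independent, although each hamster gave both. Of the 6 genes, 2 were called in it, Nr3c1 and Hsd11b1. With the hamster as a block, 2 were called as well, Nr3c1 and Tsc22d3, where 7999 of 17760 symbols were.

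Nr3c1 ran from 0 to 51.4 CPM in the MBH (median 22.6) and from 0 to 199 in the DMH (median 8.88), and the MBH was higher in 37 and the DMH in 16 of 54 hamsters. The log2 difference, MBH minus DMH, was 0.62 (SE 0.29, adjusted p = 0.0842, edgeR), close to the median of all symbols. It missed the threshold without libraries under 10000 counts (adjusted p = 0.131), with the filter on low counts (0.146) and without replicate 1, 3, 4, 5 or 6 (0.115 to 0.538). With the hamster as a block, since both tissues came from the same animals, it was 1.42 (SE 0.34, adjusted p = 1.78e-04), beside a median of 0.83 over all symbols.

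Hsd11b1 was called in the opposite direction. It ran from 0 to 12.1 CPM in the MBH (median 3.37) and from 0 to 18.6 in the DMH (median 2.04), with means of 3.77 ± 2.63 and 5.88 ± 6.40 CPM (s.d., n = 54 each). The DMH was higher in 29 and the MBH in 23 hamsters. The log2 difference was -0.78 (SE 0.26, adjusted p = 0.0128, edgeR), against the shift of 0.54 in all symbols. The median was higher in the MBH and the mean in the DMH, where Hsd11b1 had counts in 32 of 54 libraries. The call was lost with the hamster as a block (-0.42, SE 0.29, adjusted p = 0.262) and without replicate 1 (-0.48, adjusted p = 0.266), and its sign turned to 0.83 with library totals in place of TMM, where the median of all symbols was 2.04.

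The other genes were not called between the 2 regions in the main fit. The MBH minus DMH difference was 0.51 (SE 0.29, adjusted p = 0.182) for Nr3c2, 0.39 (SE 0.24, adjusted p = 0.217) for Tsc22d3 and 0.04 (SE 0.29, adjusted p = 1) for Sgk1, and Fkbp5 had too few counts for a fold change. With the hamster as a block, Tsc22d3 was called at 0.96 (SE 0.32, adjusted p = 0.0100). With library totals all but Fkbp5 were called higher in the MBH, 5 of 6, in a setting that called 13220 symbols.

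**Figure D4:**
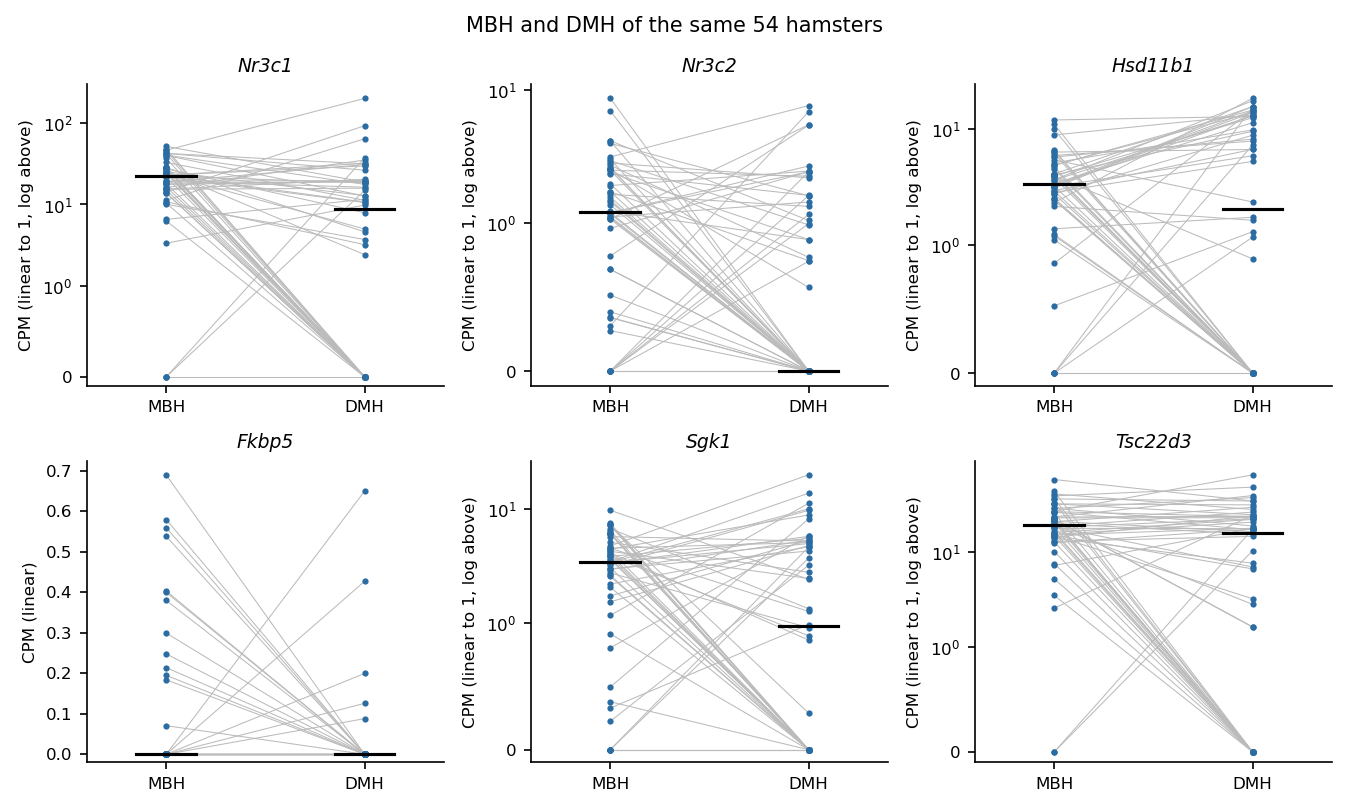
CPM of the 6 genes in the MBH and DMH of the same 54 hamsters on a common scale, with a grey line per hamster and a black bar at the median (axes linear to 1 CPM and logarithmic above, except Fkbp5, which is linear). Nr3c1 is higher in the MBH in 37 of 54 hamsters, and many DMH libraries lie at 0.

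Glucocorticoids circulate and reach every tissue, so levels were also compared between the tissues of the same hamster. Levels (log2 CPM with a prior count of 2) were centred on the group mean and correlated between tissues for genes with counts in at least 27 libraries of both, with 100000 permutations of hamsters within groups. None of the 16 correlations of the 6 genes was called, and 1, between MBH and DMH, had an unadjusted p below 0.05. Of all symbols, 355 of 5630 were below 0.05 for MBH and DMH, 420 of 8055 for MBH and PVN, and 160 of 3021 for MBH and Pit. The counts were 334 of 4534 for DMH and PVN, 325 of 3733 for DMH and Pit, and 110 of 2239 for PVN and Pit. The shares of all symbols called were 0.0178% for MBH and DMH, 0.0372% for MBH and PVN, 0.0331% for MBH and Pit, 0% for DMH and PVN, 0.0268% for DMH and Pit, and 0% for PVN and Pit.

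Tsc22d3 had the highest of these, with Spearman's rho of 0.281 (permutation p = 0.0487, adjusted p = 0.775) and Pearson's r of 0.168 (permutation p = 0.253, adjusted p = 0.997) between MBH and DMH in 53 hamsters, and r was 0.322 without the 2 hamsters farthest from the MBH median. Leaving out a replicate number moved this rho between 0.127 (without 3) and 0.486 (without 1). Sgk1 had the lowest, with rho of -0.266 (permutation p = 0.0675, adjusted p = 0.959) and r of -0.237 (permutation p = 0.0902, adjusted p = 0.989) between MBH and PVN in 51 hamsters, and r of -0.313 without the 2 farthest. Its rho lay between -0.348 and -0.0168, the latter without replicate 5. Nr3c1 had rho between -0.169 and -0.00244 in all 6 pairs of tissues, with permutation p from 0.269 to 0.987.

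Within a tissue, pairs of these genes were compared across libraries, which share their depth and scaling. Of 26 pairs, 6 had a permutation p below 0.05 for rho, of which 1 of 10 was in the MBH, 5 of 6 in the DMH and 0 of 10 in the PVN. In the DMH the median rho of these genes with all 7159 genes was already 0.278 to 0.401, and the 5 DMH pairs exceeded 59.4%, 67.5%, 72.3%, 74.5% and 94.0% of the genes compared in the same way. The highest DMH pair, Nr3c1 with Tsc22d3, had rho of 0.504 (permutation p = 4.40e-04) and r of 0.480 (permutation p = 8.70e-04) in 54 libraries, or 0.548 without the 2 farthest, and Tsc22d3 ranked 431 among those genes.

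The MBH pair was Nr3c2 with Hsd11b1, a pair named after its value was seen. Across 53 MBH libraries rho was 0.503 (permutation p = 6.50e-04) and r was 0.577 (permutation p = 2.00e-04), or 0.460 without the 2 farthest libraries. Hsd11b1 ranked 29 among the 12039 genes by likeness to Nr3c2, whose median rho was 0.146. Without centring on the group, rho was 0.308 and the rank 995. Replicate 2 of 8 and 16 weeks and replicate 1 of 24 weeks, with totals of 232745, 493708 and 71577 counts, had 0 counts of both genes. Nr3c2 and Hsd11b1 correlated with log2 library total at rho of 0.351 and 0.161, where the median of all genes was 0.223. The part of depth and of these libraries in the pair was not tested. In the PVN the same pair had rho of 0.0720.

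**Figure D5:**
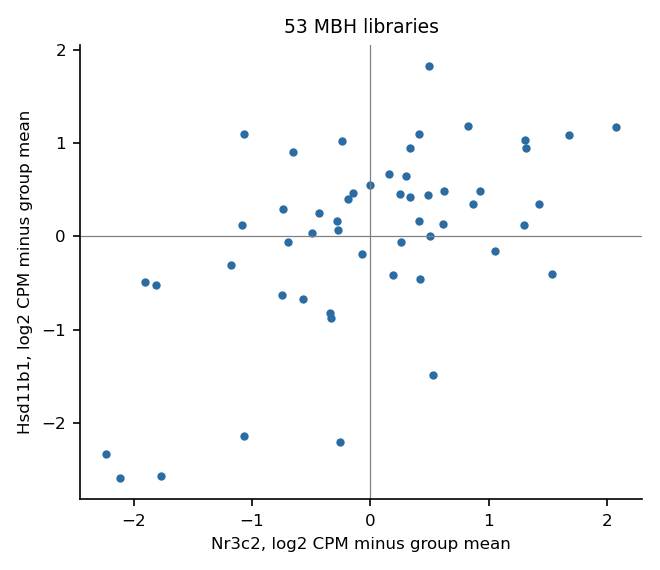
Log2 CPM of Nr3c2 (x) and Hsd11b1 (y) minus the mean of the photoperiod group, with a point for each of 53 MBH libraries. The points rise together (rho 0.503). Those at the lower left include replicate 2 of 8 and 16 weeks and replicate 1 of 24 weeks, which had 0 counts of both genes.

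The genes whose MBH pattern was most like each of these were found by the same centred rho across 53 libraries. For Nr3c1 they were Elavl2 (0.667), Ppp4r3b (0.654) and Anp32a (0.653). For Nr3c2 they were Mafg (0.592), Mif (0.580) and Med22 (0.571), and for Hsd11b1 Mrps27 (0.598), Pias4 (0.572) and Sema6d (0.566). Sgk1 was most like Usp20 (0.603), Bcat1 (0.601) and Ablim3 (0.599), and Tsc22d3 most like Tmco3 (0.586), Ssr3 (0.539) and Rnd2 (0.523). Fkbp5 had counts in too few libraries for this.

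The wider pathway was read from 5 lists. Among hormones and receptors of the axis, 9 of 11 genes were in the MBH table and 0 passed the F-test, and in the DMH 1 of 8, in the PVN 0 of 5 and in the Pit 1 of 6. Of the genes of steroid access and metabolism, 0 of 4, 0 of 5, 0 of 4 and 2 of 4 passed in MBH, DMH, PVN and Pit. Receptor chaperones and co-regulators gave 0 of 15, 0 of 15, 0 of 13 and 2 of 15. Other glucocorticoid-responsive genes gave 0 of 22, 2 of 21, 0 of 21 and 0 of 21, and Sgk1 and mineralocorticoid targets gave 0 of 8, 0 of 8, 0 of 6 and 0 of 8. Over the 5 lists 0 of 58 genes passed in the MBH, 3 of 57 (5.26%) in the DMH, 0 of 49 in the PVN and 5 of 54 (9.26%) in the Pit, shares close to those of all symbols (4.62% in the DMH and 9.56% in the Pit). In the 3 phases, the list genes that passed were all lower in SD, 2 in the DMH and 1 in the Pit. That was the direction of nearly every phase call in these tissues, with all but 7 calls lower in the middle phase and 62 of 64 in the late phase of the DMH, and 138 of 140 in the late phase of the Pit. At an unadjusted p below 0.05 the F-test gave 2, 0, 0, 0 and 1 genes in the MBH and 1, 1, 0, 0 and 1 in the PVN, in the order of the lists. DESeq2 called none in these tissues, where over the 9 groups it called 0.0597% and 0% of all symbols. The median log2 fold change of the lists in the middle phase was -0.59, 0.52, 0.03, -0.13 and -0.10 in the MBH, in the same order, against 0 over all symbols.

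In the DMH the axis gene that passed was Crhr1, the receptor for corticotropin-releasing hormone. It had 59 counts in 8 libraries, from 0 to 2.29 CPM in LD (2 of 6 with counts) and from 0 to 0.981 in the middle phase (1 of 18 with counts), a log2 fold change of -3.04 (SE 0.84, adjusted p = 0.0962, edgeR). Cdkn1a, a cell cycle inhibitor gene, had LD levels from 0 to 1.53 CPM (median 0.797) and late levels from 0 to 0.359 (median 0), with log2 fold changes of -2.89 (SE 0.73) in the middle and -2.81 (SE 0.68) in the late phase (adjusted p = 0.0590 and 0.0766). Cebpb, a transcription factor gene, passed the F-test (adjusted p = 0.0467) on 8 counts in 3 libraries of the middle phase.

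In the Pit, Avpr1b, the vasopressin receptor of corticotrophs, had counts in 3 of 6 LD libraries (up to 19.9 CPM) and in 0 of 18 late libraries, with a late adjusted p of 0.0778 (edgeR) on 7 counts in all. The genes that passed the F-test there were at 0 in all 6 LD libraries: Crhr1 (43 counts in 13 libraries, adjusted p = 0.0171), H6pd, which supplies the cofactor of the Hsd11b1 enzyme (61 in 12, 0.0325), Srd5a1, a steroid reductase (12 in 5, 0.0408), and the co-regulators Nrip1 (85 in 14, 0.0122) and Ncoa3 (26 in 11, 0.0316). None of these DMH and Pit calls held with the highest isoform or with DESeq2, and the filter on low counts removed each gene. Over the 9 groups the highest isoform called 0.147% of all symbols in the DMH and 0.142% in the Pit. For DESeq2 these shares were 0.00461% and 0.00449%. Where a list had no gene past the threshold, its gene with the smallest F-test p was Crhr1, Hsd11b2, Ppid, Cebpb and Scnn1a in the MBH, Crhr2, Abcb1b, Nrip1, Anxa1 and Scnn1a in the PVN, Abcb1b, Ncoa3 and Nedd4l in the DMH, and Ndrg2 and Nedd4l in the Pit, with adjusted p from 0.179 to 1.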

How the data were processed

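Tissue from 216 libraries (54 hamsters, 4 regions) was sequenced on nanopore flow cells. Labels give a PCR-cDNA kit throughout, whereas the study's methods name a direct cDNA kit for the pituitary gland. According to the methods, the authors trimmed and filtered reads (quality above 9, length above 25 bases), mapped them on the mouse genome (minimap2) and quantified isoforms with Salmon. The deposited values are estimated counts per isoform and library, 97.6–99.6% of them whole (tolerance 1e-06). The sources used here do not state which annotation the PVN values rest on.

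Counts were summed over the isoforms of a gene symbol, rounded, and scaled by TMM within a tissue. Photoperiod was tested with the edgeR 4.0.16 quasi-likelihood F-test without a filter on low counts (R 4.3.3), FDR below 0.1 over all symbols of a table, over 9 groups and for 3 phases of SD against LD. The scripts were tested on simulated data. Single weeks were compared by 2-sided exact permutation tests (scipy 1.17.1, Python 3.11.15). The MBH and DMH were fitted jointly, with the libraries of a hamster treated as independent except where the hamster was a block. Correlations used libraries of at least 10000 counts and 100000 permutations within groups, which can give no p below 1e-05. Limits on levels at 0 use 3 counts over a group and cover counting error only. Replicates were different hamsters. Library totals, given with the results, set the precision.

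Alternatives were FDR below 0.05, DESeq2 1.42.0 and its size factors, a filter on low counts (filterByExpr), the edgeR 4 form of the test, the highest isoform, a cosine of 32 weeks, a replicate block, omission of shallow libraries and of each replicate number, and library totals without TMM, the last chosen after seeing the data, as was the omission of shallow libraries from the exact tests. The genes and lists were chosen with earlier results of these data known. Named were the 6 genes, the list genes that passed (at most 8 per tissue), otherwise the list gene with the smallest F-test p, and the 3 genes most like each of the 6 in the tissue where it had most counts.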

Additional observations from a re-analysis of the deposited data

Results flagged for a closer look

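In 21 of 135 groups of 6 libraries, a single library stood apart from the other 5 by Dixon's criterion, in 5 of 45 groups in the MBH, 8 of 36 in the DMH, 3 of 45 in the PVN and 5 of 9 in the Pit. Chance gives about 1 in 20 groups of normally distributed values, but CPM here are skewed and often 0, and among all symbols with counts in at least 27 libraries 11.5% of groups in the MBH, 15.5% in the DMH, 10.3% in the PVN and 12.6% in the Pit met the criterion. The library was the highest of its group in 20 of the 21.

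Nr3c2 in the MBH reached 9.57 CPM in an LD library (next 4.03), 15.8 at 16 weeks (next 5.94) and 19.6 at 24 weeks (next 6.36). Tsc22d3 in the MBH reached 139 CPM at 8 weeks, on 38 counts in a library of 232745, and was 0 at 20 weeks in the library of 5996 counts.

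Nr3c1 in the DMH reached 25.4 CPM at 16 weeks, 50.3 at 20 weeks on 12 counts, 95 at 28 weeks on 48 counts, and 12.2 at 32 weeks. Sgk1 in the DMH was 2.16 CPM in a 32-week library and 0 in the other 5. Tsc22d3 in the DMH reached 26.2 CPM at 16 weeks. Hsd11b1 in the DMH reached 7.28 CPM at 8 weeks and 7.85 at 32 weeks, the latter on 4 counts.

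Nr3c1 in the PVN reached 81.4 CPM at 4 weeks on 8 counts and 77.9 at 20 weeks on 10 counts, and Sgk1 in the PVN 38.2 at 20 weeks on 4 counts. Nr3c1 in the Pit reached 286 CPM in an LD library on 13 counts (next 43.2), 182 at 4 weeks, 254.7 at 8 weeks (next 13.5), 411 at 12 weeks (next 84.2) and 527 at 24 weeks (next 161.3).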

How the results depend on the processing

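The alternatives changed the number of transcripts called over the 9 groups. Of the receptors and responsive genes, 0 passed in the MBH, DMH and PVN under every alternative run. At the shares below, few or no calls among 6 genes would arise under any setting. This 0 therefore says little about how stable these genes were. From 0.442% of symbols in the MBH, 4.62% in the DMH, 0.0158% in the PVN and 9.56% in the Pit, the shares called became 0.213%, 1.87%, 0% and 6.01% at FDR below 0.05, 0.0434%, 0.124%, 0% and 0.374% of those left by filterByExpr, 1.71%, 3.07%, 0.538% and 5.70% with the cosine, and 0.0597%, 0.00461%, 0% and 0.00449% with DESeq2. The highest isoform gave 0.147% in the DMH, 0.237% in the PVN and 0.142% in the Pit, the edgeR 4 form 0.156% in the DMH and 0.211% in the PVN, library totals (chosen after seeing the data) 1.23% in the MBH and 8.90% in the DMH, DESeq2 size factors 0.0316% in the PVN, and omission of libraries under 10000 counts 0% in the PVN. Leaving out each replicate number gave 0.0347–0.149% in the MBH, 0.486–3.73% in the DMH, 0.00527–0.0475% in the PVN and 7.50–11.3% in the Pit.

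In the Pit, where Sgk1 alone of the 6 genes passed, 0 passed with filterByExpr, the cosine, the highest isoform or DESeq2, 2 with the edgeR 4 form, and 1–2 when a replicate number was left out. The edgeR 4 form called 10.7% of all Pit symbols. Between MBH and DMH, 2 of the 6 genes passed, against 5 with library totals and 1 of the 5 tested with filterByExpr. Without libraries under 10000 counts 1 passed, and without a replicate number 0–2. Of all symbols, 7651 of 17760 passed in the main fit, 5588 of 9559 with filterByExpr and 7256 of 17760 without shallow libraries. Without a replicate number 5687 to 7847 of 17760 passed. With the hamster as a block 2 of the 6 genes passed, but Tsc22d3 took the place of Hsd11b1 beside Nr3c1. Transcripts called there went from 7651 to 13220 with library totals, and Hsd11b1 turned from -0.78 to 0.83 (MBH minus DMH, log2), while the median of all symbols went from 0.54 to 2.04, above Hsd11b1 in both. The cause of these changes was not tested, apart from the smaller number of genes that filterByExpr leaves.

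Replicate numbers recur across groups in the labels. Pairs of libraries with the same number had median correlations of 0.0455, 0.0679, 0.0357 and 0.0753 in MBH, DMH, PVN and Pit, against -0.00656, -0.0220, -0.00581 and -0.0213 for other numbers, and 51, 93, 32 and 75 of those pairs exceeded 0.1, with the lowest correlation below 0 in each tissue. Out of 6 numbers, a library was closest to its own in 31, 21, 30 and 42 of 54 cases, a hint from the data and not from the labels, which do not say what a number marks. As not every pair exceeded 0.1, a strict rule, the numbers were not taken as pairing. The main tests thus leave out whatever libraries of a number share. With the number as a replicate block, 0.109%, 1.04%, 0.396% and 10.5% of symbols were called in the MBH, DMH, PVN and Pit. In the Pit, 3 of the 6 genes were among them. Fkbp5 in all tissues and Hsd11b1 in the Pit rest on 17 counts or fewer, and low depth and low level cannot be told apart there.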
